A study of Homo sapiens with 12 samples.

Results

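The regulators described here were 9 genes that hold cells in an epithelial or a mesenchymal state. They comprised 4 epithelial genes (OVOL1, OVOL2, ESRP1, ESRP2) and 5 mesenchymal ones (ZEB1, ZEB2, SNAI1, SNAI2, TWIST1), and every probe whose platform symbol is one of these names was taken, whatever its values. That gave 11 of the 47323 probes on the array, with 2 each for ZEB2 and SNAI2 and 1 for each other gene. The samples were BE(2)-C cells, an established human neuroblastoma line, transfected with 2 µg of a plasmid carrying GRHL1 (pTRex-GRHL1) or of the empty vector pTRex-Dest30. RNA from 24, 48 and 72 h after transfection was hybridised, giving 6 groups of 2 arrays. All groups shared the line, the medium with 10% fetal bovine serum and the Effectene reagent, and the series compares forced expression of GRHL1, a grainyhead-like transcription factor of epithelia, with the empty vector. The sources used here give no share of cells that took up plasmid.

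OVOL1 and OVOL2 encode zinc-finger repressors of epithelial cells, and ESRP1 and ESRP2 encode RNA-binding proteins that switch splicing to epithelial isoforms. ZEB1, ZEB2, SNAI1 and SNAI2 encode zinc-finger repressors that bind E-box sequences and shut off epithelial genes such as CDH1 (E-cadherin), and TWIST1 is a basic helix-loop-helix factor that favours the mesenchymal state. OVOL and ZEB factors repress each other's genes, and microRNAs of the miR-200 group hold down ZEB1 and ZEB2 by pairing with their transcripts. The mesenchymal factors also act in the neural crest, the embryonic tissue from which neuroblastoma arises.

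The microRNAs of this circuit are shown because the array carried probes for their precursor genes. RefSeq (GRCh38.p14) gives the mature forms below, 5′ to 3′, with the seed (bases 2 to 8) in capitals. miR-200b, miR-200c and miR-429 share one seed, miR-200a and miR-141 share another, and miR-205, which also targets ZEB transcripts, has its own.
hsa-miR-200b-3p: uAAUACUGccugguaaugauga
hsa-miR-200c-3p: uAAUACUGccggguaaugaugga
hsa-miR-429: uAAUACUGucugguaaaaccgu
hsa-miR-200a-3p: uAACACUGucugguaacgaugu
hsa-miR-141-3p: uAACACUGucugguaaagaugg
hsa-miR-205-5p: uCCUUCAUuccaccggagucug
Of the probes for their 6 precursor genes, 5 were detected on 0 of 12 arrays and that of MIR200B on 1. The MIR200B probe read 109.8 to 129.7 intensity units on the empty vector arrays and 112.8 to 140.8 on the GRHL1 arrays, around the detection limit of 128.4 units. These probes report precursor transcripts, and mature microRNAs were not measured.

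Promoters (250 bases before to 50 after a start site, RefSeq, GRCh38.p14) were found for 2 of the 9 regulators, ZEB1 with 7 start sites and ZEB2 with 1. They were searched on both strands for the OVOL motif CCGTTA, the grainyhead motif AACNNGTT and the E2-box CAGGTG bound by ZEB and SNAI factors. The OVOL motif is in 3.07% of all 35116 promoters of this length, the grainyhead motif in 3.52% and the E2-box in 20.6%. The OVOL motif was at 1 of the 7 ZEB1 start sites and at that of ZEB2, the E2-box at 2 and 0, and the grainyhead motif at 1 and 0. The promoters below are shown for ZEB2, which carries the OVOL motif, and for 2 epithelial genes whose probes rose (chosen after their values were seen), CGN with the grainyhead motif and RAB25 with 2 E2-boxes. Promoters were found for 4 of the 6 epithelial genes that rose, and the grainyhead motif was at 1 of 1 start sites of CGN, 0 of 1 of RAB25, 0 of 2 of JUP and 0 of 3 of CD24. The E2-box was at 0, 1, 1 and 1 of these start sites. The stricter grainyhead form AACCGGTT, in 0.134% of all promoters, was at 0 start sites of ZEB1, ZEB2, CGN, RAB25, JUP and CD24. Capitals mark the motif, and each sequence is given 5′ to 3′ on its gene's strand. A match says only that these letters are present.
ZEB2 (chr2:144520070-144520369, minus strand): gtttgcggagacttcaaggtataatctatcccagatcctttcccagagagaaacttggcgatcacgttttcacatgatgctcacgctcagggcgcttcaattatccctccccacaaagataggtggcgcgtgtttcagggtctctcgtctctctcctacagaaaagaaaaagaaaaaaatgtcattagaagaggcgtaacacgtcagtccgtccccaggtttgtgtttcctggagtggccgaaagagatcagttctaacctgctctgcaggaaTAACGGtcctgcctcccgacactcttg
CGN (chr1:151511137-151511436, plus strand): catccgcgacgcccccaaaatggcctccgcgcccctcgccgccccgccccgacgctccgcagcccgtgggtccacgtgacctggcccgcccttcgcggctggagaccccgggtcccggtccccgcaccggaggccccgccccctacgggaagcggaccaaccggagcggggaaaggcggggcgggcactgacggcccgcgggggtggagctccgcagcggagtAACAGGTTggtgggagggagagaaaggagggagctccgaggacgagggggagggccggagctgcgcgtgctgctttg
RAB25 (chr1:156060910-156061209, plus strand): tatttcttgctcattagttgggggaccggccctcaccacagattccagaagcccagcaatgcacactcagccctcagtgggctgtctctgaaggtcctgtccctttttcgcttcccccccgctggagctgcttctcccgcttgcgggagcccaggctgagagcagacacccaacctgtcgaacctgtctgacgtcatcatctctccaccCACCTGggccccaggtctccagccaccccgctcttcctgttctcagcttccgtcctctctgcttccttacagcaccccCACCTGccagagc

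The sample names of the 2 deposited tables conflicted for 7 of 12 arrays, all from 48 and 72 h. Scanner columns named empty vector, replicate 2 of 48 h and replicates 1 and 2 of 72 h, matched normalized columns named GRHL1. The reverse also occurred. The normalized table's own names were used throughout. Under them the GRHL1 probe read 4669 to 12964 units on the GRHL1 arrays and 92.3 to 122.8 on the empty vector arrays, a check seen before the names were chosen. The arrays of 24 h are named alike in both tables. The arrays detected between 17950 and 19427 probes. Of 8 adrenergic neuroblastoma markers 7 had a probe, and all 7 were above the limit on every array, with a summed intensity of 41513 to 44455 with the empty vector and 41628 to 44206 with GRHL1. MYCN alone made most of this sum, at 24204.7 to 26357.8 and 23908.5 to 27004.6 units, so the sum says little of the dimmer markers. Of 7 epithelial markers CDH1, KRT5, KRT14 and KRT8 stayed below the limit on all arrays while KRT19 was above it on all, and the 7 summed to 809 to 947 and 865 to 900. Fibroblast markers summed to 1575 to 2383 and 1503 to 2093 (of 6, COL3A1 and PDGFRA were below the limit on all arrays and DCN and LUM above it), leukocyte markers to 916 to 1053 and 980 to 1056 (of 5, LYZ below and CD14 and CD68 above), and the 3 Schwann or glial markers with a probe (SOX10, S100B and GFAP) were below the limit. The part of such cells in the results below was not tested. Whether replicates came from different cultures is not stated in the labels, and the spread behind each p-value may then be technical.

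Only 6 of the 9 regulators were measurable enough to test. A probe was tested where it named 1 gene and was detected on at least 2 of 12 arrays. This held for 7 of the 11 probes, against 16501 of the 30113 probes of the whole array that name 1 gene. OVOL1, ESRP2, SNAI1 and the ZEB2 probe ILMN_1820767 were detected on 0 arrays. Because arrays of both plasmids count toward this filter, a probe that is bright with GRHL1 alone passes it more easily.

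**Figure D1:**
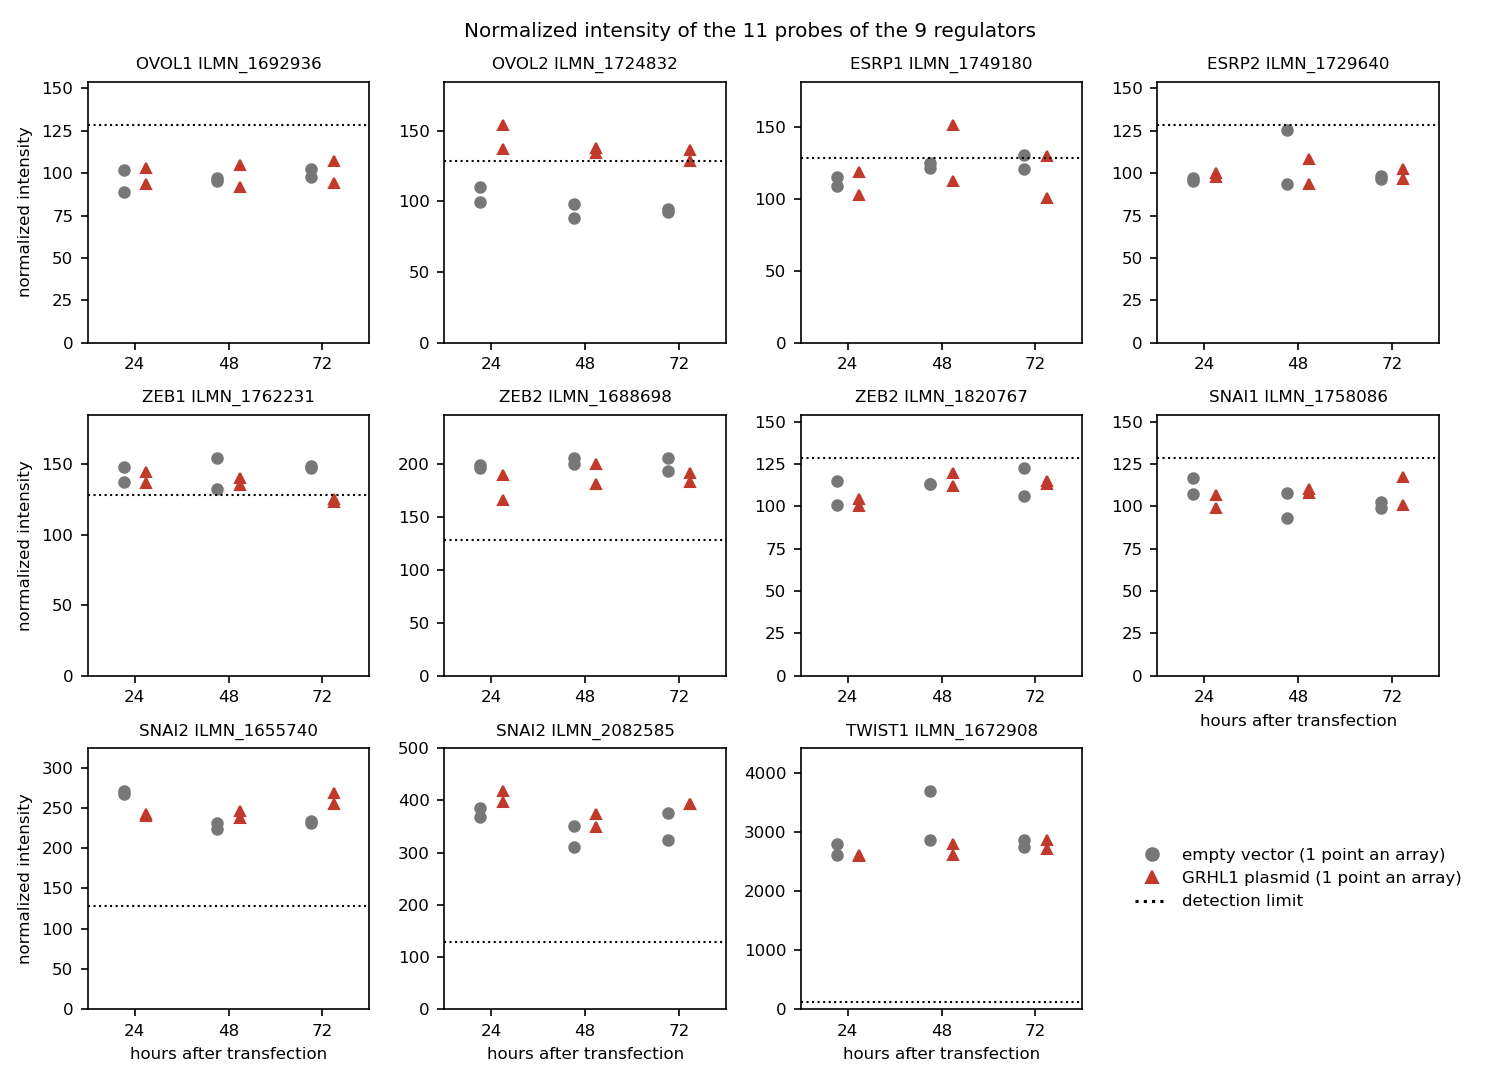
Normalized intensity (y axis, linear, from 0) of each of the 11 probes against hours after transfection (x axis), with grey circles for empty vector arrays, red triangles for GRHL1 arrays and a dotted line at the detection limit of 128.4 units. OVOL2 is the regulator whose 6 GRHL1 arrays all lie above its 6 empty vector arrays, and OVOL1, ESRP2, SNAI1 and one ZEB2 probe lie below the limit throughout.

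OVOL2, the epithelial repressor, rose with the GRHL1 plasmid from below detection to about the detection limit. At 24 h its probe ILMN_1724832 read 153.9 and 137.1 units with GRHL1 and 110.0 and 99.3 with the empty vector. At 48 h the GRHL1 arrays read 137.6 and 134.4 against 88.0 and 97.9, and at 72 h 136.0 and 128.2 against 92.4 and 94.3. The plasmids did not overlap at any time, which held for 2.52% of probes tested in this direction, and 5 of 6 GRHL1 arrays and 0 of 6 empty vector arrays were above the limit of 128.4. Averaged over the 3 times the log2 difference was 1.26 ± 0.11 (SE, 6 arrays against 6, limma adjusted p = 0.000286) on the background-corrected scale. Before background correction the means were 137.9 and 97.0 units, a ratio of 1.42. Since the empty vector arrays gave only an upper limit, the rise is a bound of at least 1.07-fold against the detection limit. In this comparison 1.26% of all probes tested were called (1.16% rose and 0.103% fell), and OVOL2 was the 1 call among the 7 probes of the regulators. Because OVOL2 could enter the test only in the direction of a rise, this count is a description. All 6 GRHL1 arrays lay above all 6 empty vector arrays for 1.22% of probes tested. An exact permutation test of the plasmid labels within each time gave p = 0.00926 (two-sided, not adjusted, the smallest that 216 arrangements can give). Any probe whose plasmids separate in one direction at all 3 times gets this p, so it restates that separation. In bulk RNA, a small rise in every cell and a larger one in the cells that took up plasmid cannot be told apart.

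At single times OVOL2 was at least 1.13-fold higher at 24 h (log2 difference 1.10 ± 0.19, limma adjusted p = 0.0634), at least 1.06-fold at 48 h (1.40 ± 0.19, adjusted p = 0.0143) and at least 1.03-fold at 72 h (1.27 ± 0.19, adjusted p = 0.0356), each from 2 arrays against 2. Thus OVOL2 passed the threshold at 48 and 72 h, where 0.358% and 0.224% of probes rose, but not at 24 h, where 0.279% did. In either direction 0.382%, 0.23% and 0.291% were called, and 0.0242%, 0.00606% and 0.0121% fell. A change of the difference with time was not called (F = 0.57, limma adjusted p = 1.0). The calls at single times rest on the setting, with adjusted p from 0.0179 to 0.37 at 24 h, 0.00555 to 0.151 at 48 h and 0.0124 to 0.337 at 72 h over the other settings on the normalized table. Without empty vector replicate 1 of 48 h, or without either GRHL1 array of that time, the 48 h call was lost (limma adjusted p = 0.11, 0.122 and 0.103). The 72 h call was lost without any 1 of 8 arrays, the GRHL1 arrays of 24 and 48 h (adjusted p = 0.0549 without either of 24 h and 0.0694 without either of 48 h) and all 4 arrays of 72 h (0.161 to 0.337). At 24 h a call was gained without either empty vector array of 48 h (adjusted p = 0.0319). The mean over times stayed past the threshold in all of these settings, with adjusted p from 6.54e-06 to 0.00371. Under the scanner table's names the log2 difference became 0.05 over the 3 times, -0.41 at 48 h and -0.55 at 72 h, and 0 probes of the whole array were called. On the scanner table's arrays, whatever their names, the 6 brightest for OVOL2 (at least 121.7 units) were the 6 brightest for GRHL1, and the other 6 read at most 105.9.

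The other epithelial regulators gave no such rise. OVOL1, the paralogue of OVOL2, read 89.1 to 102.3 units with the empty vector and 91.7 to 107.0 with GRHL1, below the limit on all 12 arrays. ESRP2 read 93.4 to 125.2 and 93.4 to 108.2, also below the limit on all arrays, so for neither gene can a fold be given. ESRP1 was at the edge of detection. It read 108.6 and 115.4 with the empty vector and 118.3 and 102.5 with GRHL1 at 24 h. The values were 124.7 and 121.0 against 112.0 and 151.2 at 48 h, and 120.5 and 130.5 against 100.5 and 129.4 at 72 h. Its plasmid groups overlapped at every time, 3 of 12 arrays were above the limit, and the log2 difference was -0.10 (95% interval -0.53 to 0.33, limma adjusted p = 0.895).

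Among mesenchymal regulators 0 of 5 probes passed limma's test in any of the 4 plasmid comparisons. At an unadjusted p under 0.05 there were 3 over the 3 times, 1 at 24 h, 0 at 48 h and 2 at 72 h, where 12.3%, 8.88%, 8.32% and 6.95% of all probes passed it. ZEB1 was just above detection. At 24 h it read 137.2 and 148.0 units with the empty vector and 144.7 and 137.0 with GRHL1. At 48 h the values were 132.1 and 154.2 against 135.4 and 140.2, and at 72 h 149.0 and 147.5 against 125.4 and 123.0. The plasmids overlapped at 24 and 48 h, while at 72 h both GRHL1 arrays lay below the limit and both empty vector arrays above it. ZEB1 was thus at least 1.15-fold lower at 72 h in these arrays, with a log2 difference of -0.52 ± 0.14 that missed the threshold (limma adjusted p = 0.363). Both GRHL1 arrays lay below both empty vector arrays for 19.5% of probes at 72 h. The mean over times was -0.21 (95% interval -0.40 to -0.03, limma adjusted p = 0.328, exact permutation p = 0.111), and the change with time gave F = 3.46 (limma adjusted p = 0.93).

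ZEB2, which also acts in neural crest and neuronal development, was detected on all 12 arrays with probe ILMN_1688698. At 24 h it read 199.1 and 196.7 units with the empty vector and 166.6 and 189.5 with GRHL1. At 48 h the values were 200.3 and 205.6 against 199.8 and 181.5, and at 72 h 205.7 and 194.0 against 182.8 and 191.3. Both GRHL1 arrays were lower than both empty vector arrays at each of the 3 times, at 48 h by less than 1 unit, a pattern that 1.65% of probes tested showed. The log2 difference over the 3 times was -0.18 (95% interval -0.35 to -0.02, 6 arrays against 6) and failed the correction over all probes (limma adjusted p = 0.351). The exact permutation test within times gave p = 0.00926, unadjusted over the 7 probes so tested and the smallest that 216 arrangements can give. It restates the separation at all 3 times and is no further evidence. The second ZEB2 probe stayed at 100.9 to 122.5 and 100.5 to 119.9 units, below the limit.

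SNAI2, or Slug, had 2 probes above the limit on all 12 arrays, and they did not behave alike. Probe ILMN_1655740 read 270.5 and 267.0 with the empty vector and 239.4 and 242.0 with GRHL1 at 24 h, 223.7 and 230.9 against 246.7 and 237.7 at 48 h, and 233.4 and 231.5 against 268.0 and 255.3 at 72 h. It was thus lower with GRHL1 at 24 h and higher at 48 and 72 h, without overlap at any time. Such separation of 2 arrays from 2 was common, with GRHL1 lower for 17.9% of probes at 24 h and 21.3% at 48 h, and higher for 19.7% at 24 h, 17.6% at 48 h and 16.8% at 72 h. The log2 differences were -0.21 ± 0.09, 0.12 ± 0.09 and 0.23 ± 0.09 (limma adjusted p = 0.558, 0.798 and 0.662), and the change of the difference with time was not called (F = 6.09, unadjusted p = 0.019, limma adjusted p = 0.86, with 0.00606% of probes called). Its mean over times was 0.05 (95% interval -0.07 to 0.16).

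Probe ILMN_2082585 of SNAI2 read 385.3 and 368.7 with the empty vector and 396.1 and 417.2 with GRHL1 at 24 h, 311.2 and 351.1 against 373.6 and 349.3 at 48 h, and 375.1 and 324.5 against 393.4 and 392.9 at 72 h. GRHL1 arrays were higher at 24 and 72 h, as for 19.7% and 16.8% of probes tested, and overlapped the empty vector arrays at 48 h. The mean log2 difference was 0.17 (95% interval 0.01 to 0.32, limma adjusted p = 0.372, exact permutation p = 0.0185 unadjusted). At 24 h the 2 probes of this gene therefore differed in sign. SNAI1, or Snail, read 93.0 to 117.0 and 99.0 to 117.3 units and was below the limit on all arrays.

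TWIST1 was far above the limit on every array. It read 2798 and 2622 units with the empty vector and 2598 and 2611 with GRHL1 at 24 h, 3694 and 2871 against 2624 and 2807 at 48 h, and 2750 and 2864 against 2865 and 2725 at 72 h. Empty vector replicate 1 of 48 h stood above all other arrays. The plasmids did not overlap at 24 and 48 h, with GRHL1 lower, and did at 72 h. Such a separation held for 17.9% of probes tested at 24 h and 21.3% at 48 h. The other 5 empty vector arrays averaged 2781 ± 102 (SD, n = 5). The plasmid difference over the 3 times was -0.11 (95% interval -0.27 to 0.05, limma adjusted p = 0.597, exact permutation p = 0.0648), and without that array it was -0.05 (limma adjusted p = 0.866). At 48 h alone the difference of -0.27 became -0.08 without it (limma adjusted p = 0.629 and 0.971).

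**Figure D2:**
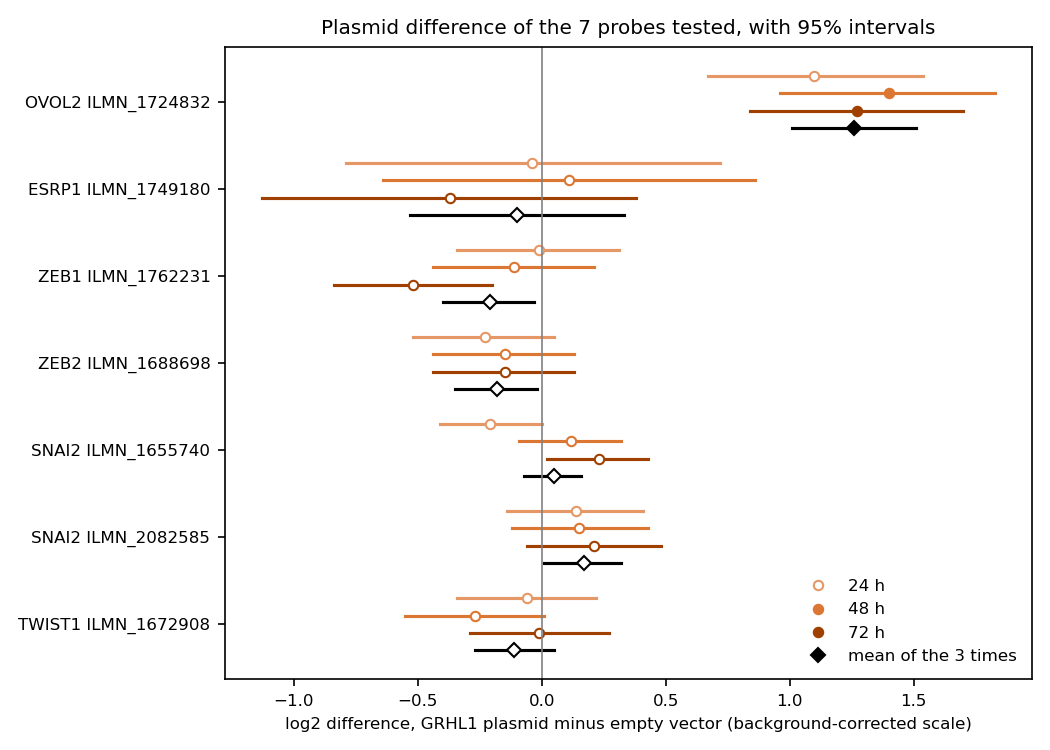
Log2 difference between the GRHL1 plasmid and the empty vector (x axis, background-corrected scale) for the 7 probes tested (y axis), at 24, 48 and 72 h (circles, 2 arrays against 2) and over the 3 times (diamonds, 6 against 6), with limma's 95% intervals as bars and filled symbols for adjusted p under 0.05. OVOL2 is the one gene with filled symbols, with a mean of 1.26, while the means of the other 6 probes lie between -0.21 and 0.17.

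With time, 0 of 7 probes of the regulators were called by limma within either plasmid, where 0.00606% and 0% of all probes were called at 48 and 72 h against 24 h with the empty vector and 0.0485% and 0.17% with GRHL1. At an unadjusted p under 0.05 there were 2 and 2 with the empty vector (9.29% and 9.96% of all probes) and 0 and 1 with GRHL1 (9.28% and 10.3%). The smallest p belonged to SNAI2 probe ILMN_1655740, which read lower at 48 h than at 24 h with the empty vector (means 227.3 and 268.8 units, log2 difference -0.32 ± 0.09, unadjusted p = 0.00595, limma adjusted p = 0.346), and its second probe gave -0.23 ± 0.12 (adjusted p = 0.599). In order of group means, OVOL2 ran with GRHL1 from 145.5 at 24 h through 136.0 at 48 h to 132.1 at 72 h. Neither 48 h nor 72 h was called different from 24 h (limma adjusted p = 0.805 and 0.681), and 72 h against 48 h was not tested. The GRHL1 probe itself averaged 11037, 5447 and 5713 units at these times. ZEB1 ran with GRHL1 from 140.9 and 137.8 to 124.2 units (72 h against 24 h, log2 difference -0.37 ± 0.14, limma adjusted p = 0.423) and with the empty vector from 142.6 and 143.2 to 148.3 (0.14 ± 0.14, adjusted p = 0.805). ZEB2 with the empty vector stayed between 197.9 and 202.9 in its group means.

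Of the epithelial genes around these regulators, 6 of the 18 tested rose and the rest of those tested were not called. The list held 40 genes that ZEB or SNAI factors repress or grainyhead factors bind, of which 37 had a probe and 18 were tested. It was drawn up with earlier results of these data known, so its count is no independent evidence. Over the 3 times 6 of 18 rose and 0 fell, where 1.34% of all genes rose and 0.105% fell by their brightest probe. The median log2 difference was 0.04 in the list and -0.01 over all genes, and 9 of the 18 differences were above 0. Of the 18, RAB25 and PPL were below the detection limit on all empty vector arrays. RAB25 was above it on all 6 GRHL1 arrays and could pass the filter on detection only in the direction of a rise. TMEM54 was detected on 6 arrays, and it was above the limit on all 6 GRHL1 arrays and 1 of 6 empty vector arrays. The filter thus favoured a rise for TMEM54 too, and the count is a description. CD24, a surface glycoprotein, had a median of 862.3 units with the empty vector and 2702.5 with GRHL1 (log2 difference 1.59 ± 0.08, limma adjusted p = 7.62e-06), and a second probe gave 1.19 (adjusted p = 0.000268). JUP, or plakoglobin of desmosomes and adherens junctions, had 342.2 and 612.3 (0.99 ± 0.07, adjusted p = 6.7e-05), and its other probes gave smaller differences that were not called, 0.38 (adjusted p = 0.108) and 0.47 (adjusted p = 0.197). CGN, the tight junction protein cingulin, had 438.8 and 759.6 (0.84 ± 0.09, adjusted p = 0.00143). In each of these 3 genes the lowest GRHL1 array exceeded the highest empty vector array, as for 1.22% of all probes tested. The 3 genes were named because they were called, so this separation is no further evidence.

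ERBB3, a receptor tyrosine kinase, had medians of 125.8 and 176.3 units (0.84 ± 0.08, limma adjusted p = 0.000531), with 0.45 from a second probe that was not called (adjusted p = 0.117), and TMEM54 109.2 and 228.5 (1.83 ± 0.21, adjusted p = 0.00152). With the empty vector ERBB3 was above the limit on 2 of 6 arrays and TMEM54 on 1 of 6. Both differences therefore start near or below the detection limit, and that of TMEM54 is not a measured fold. RAB25, a GTPase of epithelial membrane recycling, had 114.8 and 142.8 and, like OVOL2, exceeded the limit on 0 of 6 empty vector arrays, so its rise is at least 1.16-fold (adjusted p = 0.0237). Other classic epithelial genes were not tested or not called. CDH1, the classic target of ZEB and SNAI factors, read 80.2 to 99.7 and 85.3 to 102.5 units, below the limit throughout, and was not tested. EPCAM read 110.9 to 140.9 and 122.8 to 143.0 (log2 difference 0.15 ± 0.13, limma adjusted p = 0.693), and the keratin gene KRT19 198.8 to 263.0 and 204.2 to 238.3 (-0.14 ± 0.09, adjusted p = 0.56).

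Of 19 other epithelial transcription factors 5 were tested and 0 were called by limma (1 at an unadjusted p under 0.05, as for 11.8% of all genes). TFAP2C was at 0.66 ± 0.14 (limma adjusted p = 0.0661) and TFAP2A at -0.22 ± 0.10 (adjusted p = 0.442). TFAP2C read 98.9 to 124.8 units with the empty vector, below the detection limit on all of those arrays. With GRHL1 it read 116.4 to 158.3, above the limit on 4 arrays. Its difference is therefore not a measured fold, and the values give only a bound of at least 1.04-fold. Among 29 mesenchymal effector genes 15 were tested, of which CDH11 rose and S100A4 fell, where 1.34% of all genes rose and 0.105% fell. At an unadjusted limma p under 0.05 there were 4 of the 15. CDH11, a mesenchymal cadherin, had medians of 258.5 and 473.5 units (1.09 ± 0.19, limma adjusted p = 0.0221), and S100A4, a calcium-binding protein, 975.2 and 828.8 (-0.31 ± 0.06, adjusted p = 0.0343), with -0.34 from a second probe that was not called (adjusted p = 0.0533). VIM (vimentin) read -0.01 ± 0.09 (adjusted p = 0.985) and CDH2 (N-cadherin) 0.04 ± 0.06 (adjusted p = 0.837). Of 15 other mesenchymal and neural crest factors tested 0 were called by limma (2 at an unadjusted p under 0.05), with SOX4 at 0.16 ± 0.06 (adjusted p = 0.297) and ID1 at 0.15 ± 0.07 (adjusted p = 0.382).

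Of 25 corepressors and partners of ZEB, SNAI and OVOL factors 0 were called by limma (0 at an unadjusted p under 0.05), where EZH2 read -0.16 ± 0.07 (limma adjusted p = 0.437) and CSNK2A1 -0.15 ± 0.08 (adjusted p = 0.498). Of 24 splicing regulators and transcripts with exons that ESRP proteins control 0 were called by limma through their brightest probe (1 at an unadjusted p under 0.05), with MBNL2 at 0.27 ± 0.11 (adjusted p = 0.336) and CELF1 at -0.15 ± 0.07 (adjusted p = 0.417). The probes of FGFR3, a receptor gene in this list, disagreed, with 0.09 ± 0.10 from the brightest (adjusted p = 0.797) and a rise of 1.03 from the other, ILMN_1723123 (adjusted p = 7.27e-05). Exon choice itself was not measured. In the list of TGF-beta, Notch and WNT signals 1 of 17 rose, where 1.34% of all genes did. It was the WNT receptor gene FZD7 (0.51 ± 0.07, limma adjusted p = 0.00419), whose second probe gave -0.12 (adjusted p = 0.506), and TGFBR2 read 0.36 ± 0.11 (adjusted p = 0.204). At an unadjusted limma p under 0.05 there were 4 of the 17, against 11.8% of all genes. The list medians of log2 difference were -0.11 for epithelial factors, 0.05 for other mesenchymal factors, -0.01 for corepressors, 0.02 for splicing genes and 0 to 2 decimals for mesenchymal effectors and signals.

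**Figure D3:**
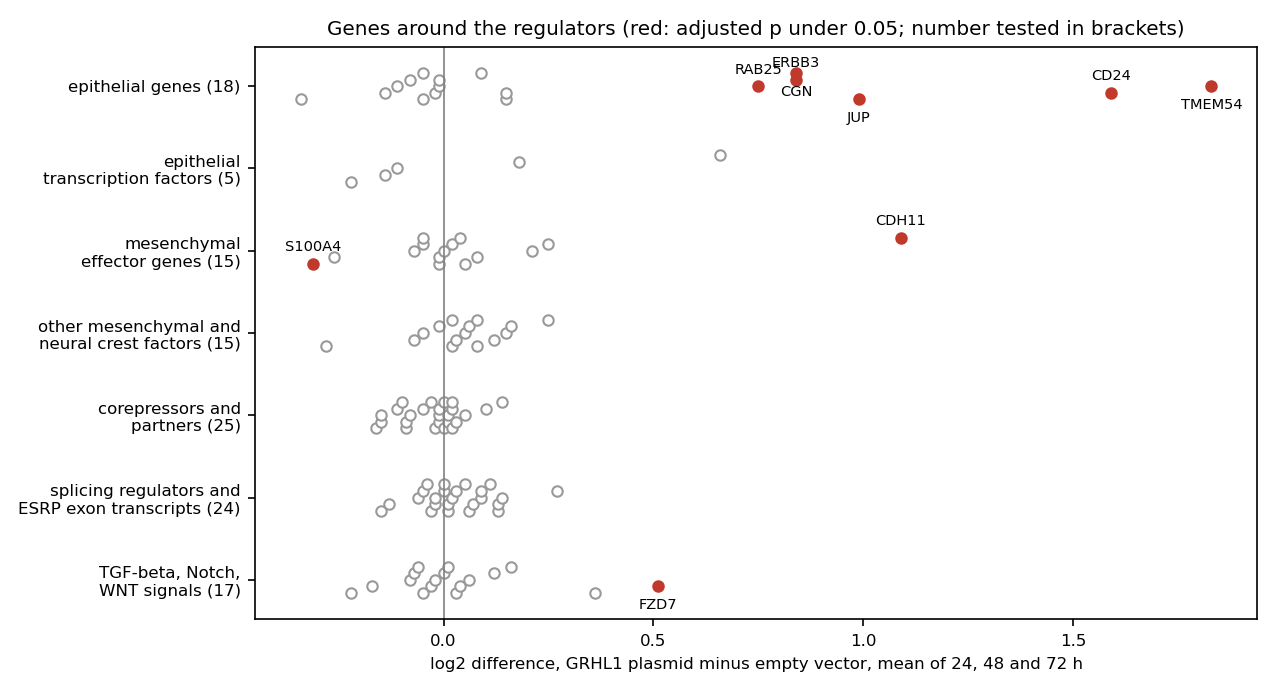
Log2 difference between the GRHL1 plasmid and the empty vector over the 3 times (x axis) for the tested genes of each list (y axis, number tested in brackets), 1 point a gene by its brightest probe, red where the adjusted p is under 0.05. Of the 18 epithelial genes 6 lie between 0.75 and 1.83 and the rest between -0.34 and 0.15, and CDH11, S100A4 and FZD7 are the called genes of the other lists.

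By profile over the 12 arrays, the genes most like OVOL2 were SERTAD2 (Pearson r = 0.969), ACOT4 (0.958) and CLIC3 (0.956), a description over arrays that share plasmid and time. ACOT4 and CLIC3 also rose (log2 differences 0.90 ± 0.09 and 1.04 ± 0.10, limma adjusted p = 0.000644 and 0.000498), and SERTAD2 read 0.25 ± 0.06 (adjusted p = 0.0842). Most like ZEB2 were GUCY1B1 (r = 0.968), RARA (0.938) and B3GNT2 (0.905), and most like ZEB1 were PDHB (0.889), HS2ST1 (0.877) and METTL2B (0.875). None of these 6 was called. The nearest profiles to the 2 SNAI2 probes were different genes, RITA1 (0.901), DRC3 (0.880) and CBY3 (0.862) for ILMN_1655740 and BCAN (0.908), SPRY4 (0.892) and BAG3 (0.881) for ILMN_2082585. Those nearest to TWIST1 were PIGV (0.870), DSCC1 (0.862) and IDNK (0.858), likenesses that take in the single bright array.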

How the data were processed

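Total RNA of 12 samples was labelled with biotin and hybridised to Illumina 12-sample BeadChips, per the labels. The authors deposited linear intensity values in a normalized table (method not given in the sources used here) and in a scanner table. Only the scanner table has a detection p-value beside each intensity, per the file headers. Detection p-values behaved as 2-sided (3416 to 4076 probes an array with p under 0.01 were dimmer than background), so a probe counted as detected with p under 0.01 and a signal above the median of probes with p above 0.9. The detection limit of 128.4 units was read off the normalized table at the rank under which 95% of undetected probes lay. Groups came from the sample titles.

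Each scanner column matched 1 normalized column (rank correlation at least 0.999973, next best at most 0.8757), and 7 of 12 matched a column of another name. Normalized intensity was background-corrected (normexp, offset 16) and put on the log2 scale, where the offset still shrinks the differences of dim probes. The 1 missing value took its probe's median. Probes naming 1 gene and detected on at least 2 arrays (16501, for 12323 genes) were fitted singly with limma 3.58.1 in R 4.3.3 (6 group means, eBayes, 6 residual and 3.85 prior degrees of freedom), and p-values were adjusted by Benjamini-Hochberg over all of them at 0.05. Entrez identifiers matched RefSeq for 30074 of 30113 probes, with 0 symbols changed. The number of arrays limits the precision. The fit was tested on simulated data.

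Lists were described through each gene's brightest probe. Every regulator probe is described, as are called list members (at most 6), or the 2 with the smallest p where fewer than 2 were called, and the 3 genes with the most similar profile. CDH1, EPCAM, KRT19, VIM and CDH2 were named after their values were seen. The regulators and lists were chosen with earlier results of these data known. Alternatives covered background correction, offset, scaling, the detection filter, probe choice, variance estimates, the scanner table, pairing, the arrays fitted and an exact permutation test. Summaries used pandas 2.3.3 and numpy 2.4.6 under Python 3.11.15, and figures matplotlib 3.10.9.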

Additional observations from a re-analysis of the deposited data

Results flagged for a closer look

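Among 22 sets of 6 arrays (each of the 11 probes with each plasmid, the 3 times pooled), 3 held an array far from the other 5, where chance gives about 5% of sets. TWIST1 read 3694.5 units on empty vector replicate 1 of 48 h. OVOL2 read 153.9 units on GRHL1 replicate 1 of 24 h, its highest array. ESRP2 read 125.2 units on empty vector replicate 2 of 48 h, which is still below the detection limit. These sets mix 3 times, and the cause of these values was not tested.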

How the results depend on the processing

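The number of regulator probes called over the 3 times (1, OVOL2) was the same under every alternative on the normalized table, and fell to 0 with the scanner table under its own sample names, where 0 probes of the array were called and 0 of the regulators at 48 and 72 h. OVOL2 then read -0.41 at 48 h and -0.55 at 72 h. Under those scanner names, columns that matched GRHL1 arrays of the normalized table counted as empty vector at 48 and 72 h. At 24 h the number rose from 0 to 1 without background correction, with offset 50 and with probes detected on at least 6 arrays, and ranged from 0 to 1 when single arrays were left out. At 48 h it fell from 1 to 0 without a detection filter, with the replicate block and with only the 4 arrays of that time, and at 72 h it did so under these 3 settings and with all probes, named or not. Leaving out single arrays gave 0 to 1 at both times. In every other comparison and setting 0 regulator probes were called.

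With the replicate block OVOL2 kept its call over the 3 times (log2 difference 1.26, adjusted p = 0.00371). Same-numbered arrays correlated in their deviations from group means at 0.123, 0.032 and 0.017, so the numbers were not taken as pairs. The log2 difference of OVOL2 depends on the scale, at 0.51 without background correction and 0.71 with offset 50 against 1.26. Over the whole array 208 probes were called in the mean comparison, against 0 to 435 under other settings and 130 to 185 without single arrays. At 24, 48 and 72 h the counts of 48, 63 and 38 ran from 0 to 136, 127 and 96. Signal over background limits OVOL2, ESRP1 and ZEB1, which lay at the detection limit, and gave no value for OVOL1, ESRP2 and SNAI1.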
